A study of Mus musculus with 12 samples.

Results

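The vascular endothelial growth factor (VEGF) genes Vegfa, Vegfb and Vegfc, their receptor genes Flt1 and Kdr, the angiopoietin genes Angpt1 and Angpt2, their receptor gene Tek, and the hypoxia-inducible factor (HIF) genes Hif1a and Epas1 were followed in mouse granulosa cells. All probe sets whose annotation named a single gene of these 10 were taken, which gave 22 of the 34945 single-gene probe sets and 10 of the 18193 genes they name. A probe set is the group of short oligonucleotides on an Affymetrix array that reads one transcript. The study set mice that lack Inha, which encodes the alpha subunit of the hormone inhibin, beside wild-type mice of the same strain, C57BL/6J;129S5/SvEvBrd, all 21 days old. All mice received 5 IU of PMSG, a gonadotropin with FSH activity that drives follicle growth, for 44 to 46 hours, and some then received 5 IU of hCG, which acts through the LH receptor and sets off ovulation and luteinization, for 6 hours. The 4 groups of 3 arrays were Inha-/- cells after PMSG and hCG, wild-type cells after PMSG and hCG, Inha-/- cells after PMSG alone and wild-type cells after PMSG alone. The cells came from punctured antral follicles, so every group had been treated with PMSG and none was untreated. The labels give no cell-specific driver for the Inha deletion, and they do not say whether animals were pooled or whether the 3 arrays of a group came from separate animals. The p-values therefore measure only the spread between these arrays, and mice without inhibin alpha are known to develop gonadal tumours.

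VEGF ligands bind receptor tyrosine kinases on endothelial cells, where Kdr carries most of the signal for vessel growth and Flt1 binds Vegfa and Vegfb and limits how much Vegfa reaches Kdr. Angpt1 activates the endothelial receptor Tek and steadies vessels, while Angpt2 can block Tek and loosens vessels that are about to sprout. Hif1a and Epas1 encode the oxygen-regulated subunits that pair with Arnt to switch on genes such as Vegfa, and the granulosa layer, which has no vessels before ovulation, is invaded by them after the LH surge.

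The promoters of the 3 VEGF ligand genes are shown because Vegfb and Vegfc changed in opposite directions with hCG in wild-type cells and Vegfa passed the threshold in no comparison. Each window runs from 250 bases before to 50 bases after a start listed for the gene in RefSeq (GRCm38.p6), and 7 of the 10 genes had one in the table used (not Angpt1, Angpt2 or Epas1). Capitals mark the letters ACGTG and GCGTG (forms of the HIF core), TGACG (the core of a cAMP response element) and GGGCGG (a GC box), searched on both strands. The Vegfa window is chr17:46032328-46032627, the Vegfb window chr19:6987602-6987901, both on the minus strand, and the Vegfc window chr8:54077282-54077581 on the plus strand.
Vegfa: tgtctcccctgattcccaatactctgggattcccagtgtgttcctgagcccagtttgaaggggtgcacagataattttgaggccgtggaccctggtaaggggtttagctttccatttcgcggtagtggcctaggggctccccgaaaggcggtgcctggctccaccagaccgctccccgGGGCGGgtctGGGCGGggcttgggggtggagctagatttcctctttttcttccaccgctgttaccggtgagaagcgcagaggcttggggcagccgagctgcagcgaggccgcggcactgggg
Vegfb: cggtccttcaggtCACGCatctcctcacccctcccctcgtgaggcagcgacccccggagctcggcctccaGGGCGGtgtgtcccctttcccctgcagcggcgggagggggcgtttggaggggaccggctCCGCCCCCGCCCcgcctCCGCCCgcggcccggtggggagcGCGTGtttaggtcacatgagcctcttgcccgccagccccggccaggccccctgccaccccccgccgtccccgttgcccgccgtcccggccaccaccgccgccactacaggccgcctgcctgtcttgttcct
Vegfc: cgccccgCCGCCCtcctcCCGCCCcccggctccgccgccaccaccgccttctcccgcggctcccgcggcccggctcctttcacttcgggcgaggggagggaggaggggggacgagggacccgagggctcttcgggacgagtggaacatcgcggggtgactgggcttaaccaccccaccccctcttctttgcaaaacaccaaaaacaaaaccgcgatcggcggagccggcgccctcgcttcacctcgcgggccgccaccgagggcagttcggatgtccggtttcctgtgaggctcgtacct
The Vegfb window held GCGTG at 2 places and a GC box at 4, with 75.3% of its bases G or C. The Vegfc window held 2 GC boxes and the printed Vegfa window 2, and neither held a match to the HIF core or the cAMP core in these 300 bases, from which nothing follows about the factors. A second Vegfa window, chr17:46025114-46025413, belongs to another listed start, downstream of the first on the minus strand. It held both forms of the HIF core once each, and its cAMP core overlapped one of them, ACGTG. Among all 32851 windows, 19.6% held the ACGTG form, 32.4% the GCGTG form, 20.8% the cAMP core and 35.7% a GC box, against 2, 4, 2 and 6 of the 8 windows listed for these genes. The 8 include this second Vegfa window, which held a match to each. A match is a description of the letters and not a binding site.

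The deposited values are log2 and centred, so that each probe set has a median of 0 over the 12 arrays. They give differences between arrays and no level of a gene, so no gene was compared with another in level, and whether a probe set stood above background could not be read from them. The targeted gene followed its labels, with Inha values of -7.40 to -5.40 on the 6 Inha-/- arrays and 5.40 to 5.87 on the 6 wild-type arrays. Of 13 probe sets of genes known to answer hCG (Pgr, Btc, Ptgs2 and others), 11 were higher after hCG in Inha-/- cells and 11 in wild-type cells. Over all probe sets, 1.1% and 5.98% were higher in these comparisons. Array serial numbers fell into an early class of 7 and a late class of 5, the late class holding Inha-/- hCG replicates 2 and 3, wild-type hCG replicates 2 and 3 and Inha-/- PMSG replicate 3. Markers of other cells moved with genotype: the per-array median of 12 oocyte genes was 0.57 to 3.01 on Inha-/- arrays and -1.50 to -0.64 on wild-type arrays, and that of 10 theca and stroma genes was 0.33 to 2.35 and -1.20 to -0.41. Of all probe sets, 6.58% were higher in Inha-/- cells after hCG and 1.44% after PMSG alone. Of 14 oocyte probe sets 9 were higher in Inha-/- cells after hCG and 3 after PMSG alone, and of 21 theca and stroma probe sets 8 and 5. Those named by the smallest adjusted p were of muscle and collagen genes (Myh11, Acta2, Col1a2 and Col3a1), while Cyp17a1, a steroidogenic enzyme of theca cells singled out after its values were seen, differed by -1.36 after hCG (adjusted p = 0.28) and -2.94 after PMSG (adjusted p = 0.0514). The medians of 13 granulosa genes were -0.14 to -0.055 after hCG in Inha-/- cells, -1.67 to -0.81 after hCG in wild-type cells, -0.29 to 0.29 after PMSG in Inha-/- cells and 0.43 to 0.65 after PMSG in wild-type cells. The part that other cells, or the serial class, had in the genotype differences below was not tested.

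Calls fell on Vegfb, Vegfc, Angpt2 and Epas1, and on none of Vegfa, Angpt1, Hif1a and the receptor genes. Among the receptor genes, the confidence intervals of Kdr and Tek were wide, -0.27 to 2.63 and 0.20 to 1.64 for hCG in wild-type cells. The Flt1 probe sets 1440926_at and 1454037_a_at hardly varied between arrays (SD 0.037 and 0.061). The lack of calls therefore does not show that the receptor genes were unchanged. Angpt2 was the 1 gene lower in Inha-/- than in wild-type cells after PMSG alone. After hCG, Epas1, Angpt2 and Vegfc were lower and Vegfb higher in Inha-/- cells. In wild-type cells Epas1 and Vegfc were higher and Vegfb lower after hCG than after PMSG alone, and in Inha-/- cells none of the 22 probe sets passed the threshold for hCG. The threshold throughout was an adjusted p under 0.05 in limma's moderated test, with the Benjamini-Hochberg adjustment over all 34945 probe sets. Of all probe sets, 1.44% were higher and 1.6% lower between genotypes after PMSG alone, and 6.58% higher and 5.55% lower after hCG. With hCG, 5.98% were higher and 6.17% lower in wild-type cells, and 1.1% and 0.1% in Inha-/- cells. Fewer cells of a type and less RNA per cell cannot be told apart in these bulk samples.

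**Figure D1:**
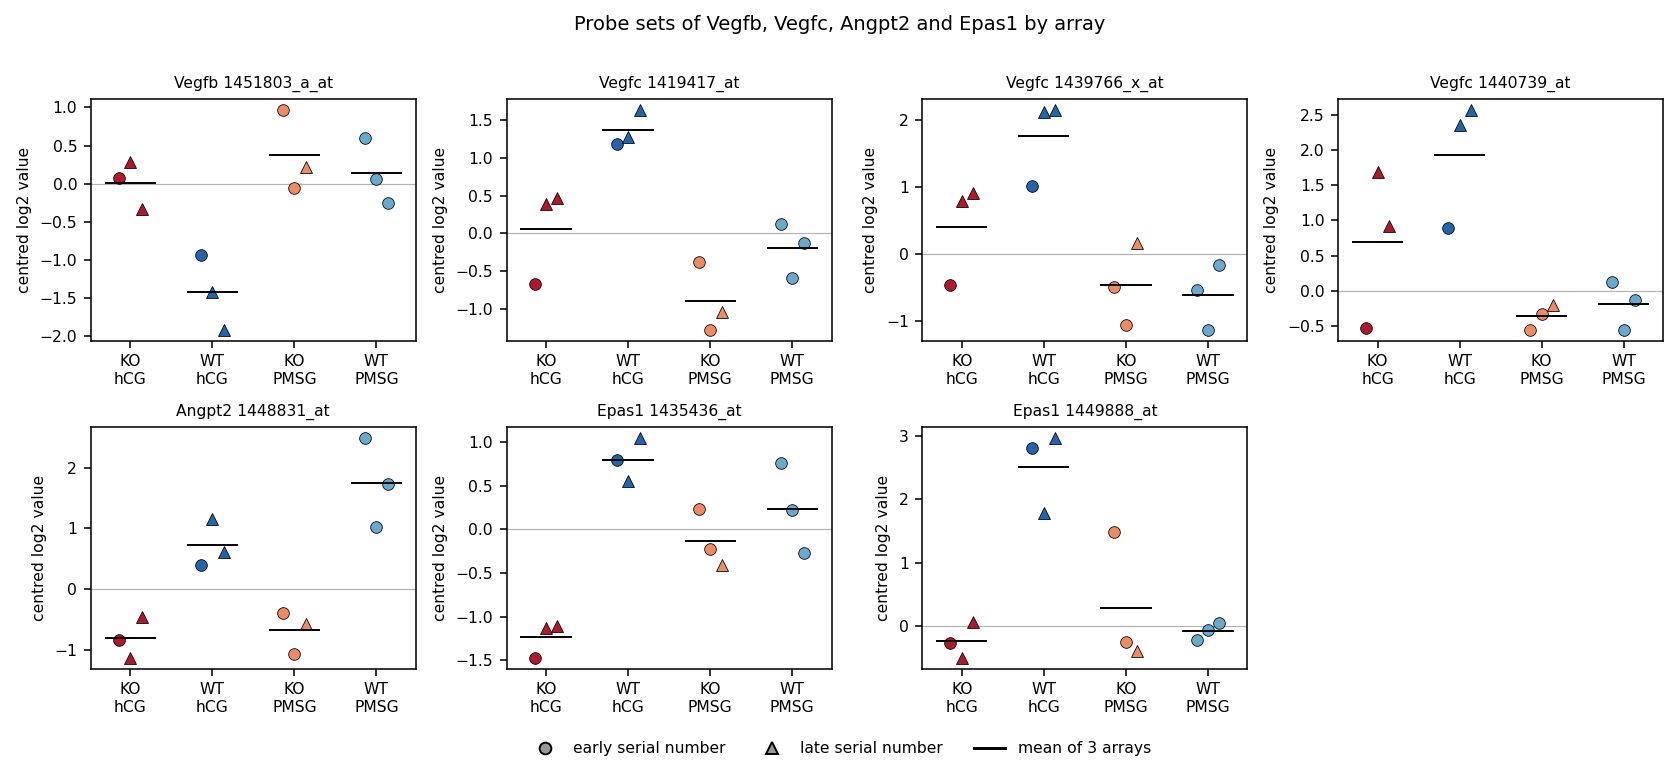
Centred log2 values on each of the 12 arrays for the probe sets past the threshold in at least 1 comparison, with a black line at the mean of 3 arrays and the marker shape giving the serial class. Angpt2 lies lower on all 6 Inha-/- arrays than on all 6 wild-type arrays, and the 3 wild-type hCG arrays stand highest for Epas1 1449888_at and lowest for Vegfb.

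Vegfb, a VEGF ligand that binds Flt1 and not Kdr, was higher in Inha-/- than in wild-type cells after hCG. Its probe set 1451803_a_at had centred log2 values of 0.076, 0.28 and -0.33 in Inha-/- cells after hCG, and -0.93, -1.43 and -1.92 in wild-type cells after hCG. With PMSG alone the values were 0.96, -0.060 and 0.21 in Inha-/- cells, and 0.60, 0.060 and -0.26 in wild-type cells. The 3 wild-type hCG arrays were the lowest of all 12, and the other 3 groups overlapped one another. The log2 difference after hCG was 1.44 ± 0.34 (SE, n = 3 each; a 2.70-fold difference; adjusted p = 0.0246, limma), and 6.58% of all probe sets were higher in that comparison, while Vegfb was 1 of the 22 followed here. In wild-type cells the log2 difference between hCG and PMSG alone was -1.56 ± 0.34 (SE, n = 3 each; adjusted p = 0.0174, limma), beside 6.17% of all probe sets lower, and Vegfb was again 1 of 22.

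In Inha-/- cells the hCG difference of Vegfb was not past the threshold, and neither was the difference between the 2 hCG responses, 1.20 with an adjusted p of 0.403 in limma. Within the serial classes the genotype difference after hCG was 1.01 (early, 1 array each) and 1.65 (late, 2 arrays each). The genotype call was lost without wild-type hCG replicate 2 or 3 or Inha-/- hCG replicate 1 or 2, and the hCG call without wild-type PMSG replicate 1 or 2 or wild-type hCG replicate 3, with log2 differences of 1.19 to 1.68 and -1.81 to -1.31 over all 12 omissions.

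Vegfc, the ligand known for driving growth of lymphatic vessels through Flt4, was higher after hCG than after PMSG alone in wild-type cells on all 3 of its probe sets. On probe set 1439766_x_at, the one with the smallest adjusted p, it had 1.01, 2.11 and 2.14 in wild-type cells after hCG and -0.54, -1.13 and -0.16 in wild-type cells after PMSG alone. On 1419417_at it had 1.18, 1.28 and 1.63 after hCG and 0.13, -0.59 and -0.13 after PMSG alone, and on 1440739_at 0.89, 2.35 and 2.56 against 0.12, -0.55 and -0.12. The groups did not overlap on any of the 3 probe sets, and the early hCG array, replicate 1, was the lowest of its group on each.

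The log2 differences were 2.36 ± 0.48, 1.56 ± 0.34 and 2.12 ± 0.57 in that order (SE, n = 3 each; adjusted p = 0.0126, 0.0177 and 0.0404, limma). With Epas1 these made 4 probe sets higher of the 22, beside 5.98% of all probe sets. Set against the 3 early PMSG arrays, the early wild-type hCG array alone gave 1.62, 1.38 and 1.07. The calls on 1439766_x_at and 1419417_at were lost without wild-type PMSG replicate 2 or wild-type hCG replicate 3, with differences of 2.10 to 2.73 and 1.36 to 1.72 over the 12 omissions. That on 1440739_at remained in 3 of 12 omissions, with differences of 1.80 to 2.64.

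In Inha-/- cells after hCG, Vegfc probe set 1419417_at had -0.68, 0.38 and 0.47, and after PMSG alone it had -0.38, -1.28 and -1.05. Inha-/- hCG replicate 1, the early array, lay among the PMSG values, and the other two hCG arrays above them. The same held for 1440739_at, which had -0.53, 1.68 and 0.92 after hCG and -0.55, -0.33 and -0.20 after PMSG alone. On 1439766_x_at the values were -0.46, 0.78 and 0.90 after hCG and -0.50, -1.05 and 0.16 after PMSG alone, with replicate 1 again among the PMSG values.

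Between genotypes after hCG, 1419417_at was lower in Inha-/- cells by -1.30 ± 0.34 on the log2 scale (SE, n = 3 each; adjusted p = 0.0374, limma), with no overlap. The other 2 probe sets gave -1.34 (adjusted p = 0.115) and -1.25 (adjusted p = 0.231). The call on 1419417_at remained in 5 of 12 omissions of an array (-1.51 to -0.93) and in 4 of the 10 other alternatives, in which the lowest and highest differences were -1.86 and -0.99. It was lost without any 1 of the wild-type hCG arrays, Inha-/- hCG replicates 1 or 2, wild-type PMSG replicate 3 or Inha-/- PMSG replicate 3. No probe set of Vegfc passed the threshold for the difference between the hCG responses (adjusted p = 0.494 for 1439766_x_at, with a difference of -1.49).

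Vegfa, the main VEGF ligand and a known HIF target, passed the threshold in no comparison. Its probe set 1420909_at had 1.44, -0.10 and 0.28 in Inha-/- cells after hCG, and 0.62, -0.17 and 0.035 in wild-type cells after hCG. Its values after PMSG alone were 0.98, 0.43 and -0.34 in Inha-/- cells, and -0.11, -0.27 and -0.035 in wild-type cells. All groups overlapped. The genotype differences were 0.38 after hCG (95% interval -0.59 to 1.34) and 0.49 after PMSG (-0.47 to 1.45), and the hCG differences were 0.18 in Inha-/- cells (-0.78 to 1.15) and 0.30 in wild-type cells (-0.66 to 1.26). All 4 intervals included 0, and each reached above 1.

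The second Vegfa probe set, 1451959_a_at, had a spread set largely by 1 array. It read -2.70 on Inha-/- PMSG replicate 3 and between -0.82 and 0.78 on the other 11 arrays. That replicate also had the highest array median over all probe sets, 0.093. Its genotype difference after PMSG was -0.54 with that array and 0.52 without it, neither past the threshold. Over the 12 arrays the 2 probe sets of Vegfa correlated at r = 0.693, a description over arrays that share treatment and genotype.

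**Figure D2:**
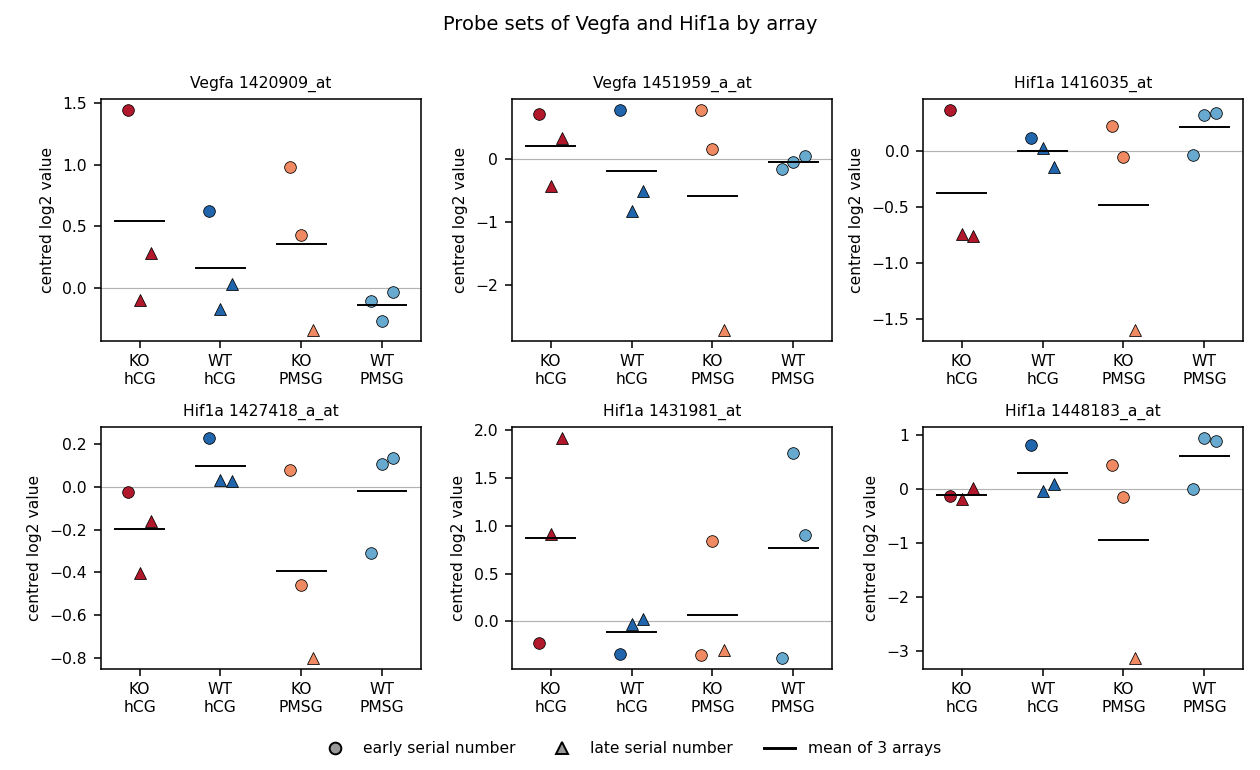
Centred log2 values on each array for the 2 probe sets of Vegfa and the 4 of Hif1a, with a black line at the mean of 3 arrays and the marker shape giving the serial class. On Vegfa 1451959_a_at and on Hif1a 1416035_at, 1427418_a_at and 1448183_a_at the lowest point is Inha-/- PMSG replicate 3, the only late array of its group.

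Angpt2, the Tek ligand that loosens vessels, was lower in Inha-/- than in wild-type cells under both treatments. Its probe set 1448831_at had -0.85, -1.13 and -0.46 in Inha-/- cells after hCG, and 0.40, 1.16 and 0.61 in wild-type cells after hCG. With PMSG alone they were -0.40, -1.07 and -0.57 in Inha-/- cells, and 2.49, 1.03 and 1.73 in wild-type cells. All 6 Inha-/- values lay under all 6 wild-type values, and the wild-type arrays after PMSG alone overlapped those after hCG through 1 array, PMSG replicate 2.

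After PMSG alone the log2 difference was -2.43 ± 0.36 (SE, n = 3 each; 5.38-fold lower; adjusted p = 0.0095, limma), and Angpt2 was 1 of 22 probe sets lower, where 1.6% of all probe sets were lower. No member was higher in that comparison, beside 1.44% of all probe sets. After hCG the difference was -1.54 ± 0.36 (2.90-fold lower; adjusted p = 0.0243, limma), which made Angpt2 1 of the 4 probe sets lower of 22, beside 5.55% of all probe sets. The median log2 difference of the 22 was -0.11 after PMSG and -0.33 after hCG, and that of all probe sets 0.039 and -0.00076.

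The PMSG difference of Angpt2 was -2.89 and -2.10 within the 2 pairs of arrays that carry the same number in their names, and it passed the threshold in all 12 omissions of an array, at -2.79 to -2.06. It did not pass when the 2 PMSG groups were fitted alone (adjusted p = 0.072) or on the 7 early arrays (adjusted p = 0.186). After hCG the difference was -1.25 in the early class (1 array each) and -1.68 in the late class (2 arrays each), and the call was lost without wild-type hCG replicate 2 or 3 or Inha-/- hCG replicate 1 or 2, with differences of -1.71 to -1.32 over the 12 omissions.

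The hCG response of Angpt2 was -0.13 in Inha-/- cells and -1.03 in wild-type cells, the last with an adjusted p of 0.112 in limma. The second probe set of Angpt2, 1459636_at, had an SD of 0.19 over the 12 arrays and differed by -0.23 between genotypes after PMSG, which did not pass the threshold. The 2 probe sets correlated at r = 0.467.

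Angpt1, the ligand that activates Tek, passed the threshold in no comparison. Its probe set 1439066_at had -0.032, 0.83 and 1.30 in Inha-/- cells after hCG, and -0.011, 0.038 and -0.022 in wild-type cells after hCG. Its 6 PMSG values lay between -0.024 and 0.16. Only the late Inha-/- hCG arrays, replicates 2 and 3, stood apart, so that the late class gave a genotype difference of 1.06 (2 arrays each) and the early class -0.021 (1 array each). The genotype difference after hCG over all arrays was 0.70 ± 0.26 (adjusted p = 0.135, limma). The hCG difference in Inha-/- cells was 0.68 over all arrays (adjusted p = 0.432, limma). Without Inha-/- hCG replicate 1, which left only the 2 late hCG arrays of that genotype, this hCG difference was 1.05 with an adjusted p of 0.00518 in limma. That was 1 of 12 omissions, the one that took out the hCG array that did not stand apart. Inha-/- PMSG replicates 1 and 2 were early arrays. The oocyte and theca and stroma medians were also highest on the 2 late Inha-/- hCG arrays. They were 3.01 and 2.66 and 2.35 and 1.78 there, beside 0.57 and 0.33 on Inha-/- hCG replicate 1. The medians of 7 pericyte genes were 1.51 and 1.27 there, beside 0.076 on replicate 1 and at most 0.55 on the other arrays, and the part of these cells was not tested. The other Angpt1 probe set, 1421441_at, had an SD of 0.11 over the 12 arrays.

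The receptor genes Flt1, Kdr and Tek, which mark endothelial cells, passed the threshold in no comparison. Tek had -0.38, 0.51 and -0.054 in Inha-/- cells after hCG and 0.021, 1.21 and 0.82 in wild-type cells after hCG. The PMSG values of Tek were -0.033, 0.087 and 0.14 in Inha-/- cells, and -0.039, -0.65 and -0.021 in wild-type cells. In wild-type cells all 3 hCG arrays lay above all 3 PMSG arrays, the early one by little, and the difference was 0.92 (95% interval 0.20 to 1.64; adjusted p = 0.104, limma).

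Flt1 was carried by 4 probe sets, of which 2 (1440926_at and 1454037_a_at) had SDs of 0.037 and 0.061 over the 12 arrays. On 1419300_at the late wild-type hCG arrays read 1.97 and 0.32, and the other 10 arrays lay between -0.037 and 0.037. The probe set 1451756_at had 0.025, -0.040 and 0.69 in Inha-/- cells after hCG, and 0.023, 0.96 and 1.51 in wild-type cells after hCG. Its PMSG values ran from -0.089 to 0.038 in Inha-/- cells and from -0.14 to -0.023 in wild-type cells. Only 3 late hCG arrays stood apart, and the hCG difference in wild-type cells was 0.89 over all arrays (adjusted p = 0.123, limma) but 0.085 for the early hCG array against the early PMSG arrays.

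Kdr had 0.031, 0.73 and 2.21 in Inha-/- cells after hCG, and -0.048, 0.67 and 1.27 in wild-type cells after hCG. Its PMSG values were -1.14, -0.072 and -0.86 in Inha-/- cells, and -0.0038, -1.65 and 0.0038 in wild-type cells. The hCG and PMSG values of Inha-/- cells did not overlap, those of wild-type cells did, and the differences were 1.68 (95% interval 0.23 to 3.13; adjusted p = 0.428, limma) and 1.18 (-0.27 to 2.63; adjusted p = 0.344, limma).

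Other endothelial genes, 18 in all with 31 probe sets, had per-array medians of -0.19, 0.085 and -0.033 in Inha-/- cells after hCG and 0.017, 0.46 and 0.29 in wild-type cells after hCG. After PMSG alone they ran from -0.049 to 0.045 in Inha-/- cells and from -0.046 to 0.21 in wild-type cells. The late wild-type hCG arrays, which stood highest for Tek and on Flt1 1451756_at with the late Inha-/- hCG replicate 3 below them, also had the highest endothelial medians. Kdr went against this, being highest on Inha-/- hCG replicate 3 (2.21), where the endothelial median was -0.033. One of the 31 probe sets, that of Cd34, a surface protein of endothelial and other cells, was higher after hCG in wild-type cells (2.30 on the log2 scale), and it was lower by -3.33 in Inha-/- than in wild-type cells after hCG. In that genotype comparison 1 endothelial probe set was higher, Sox18, and 3 were lower, Cd34, Icam2 and Esam, beside 6.58% and 5.55% of all. The part of endothelial cells in the receptor values was not tested.

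**Figure D3:**
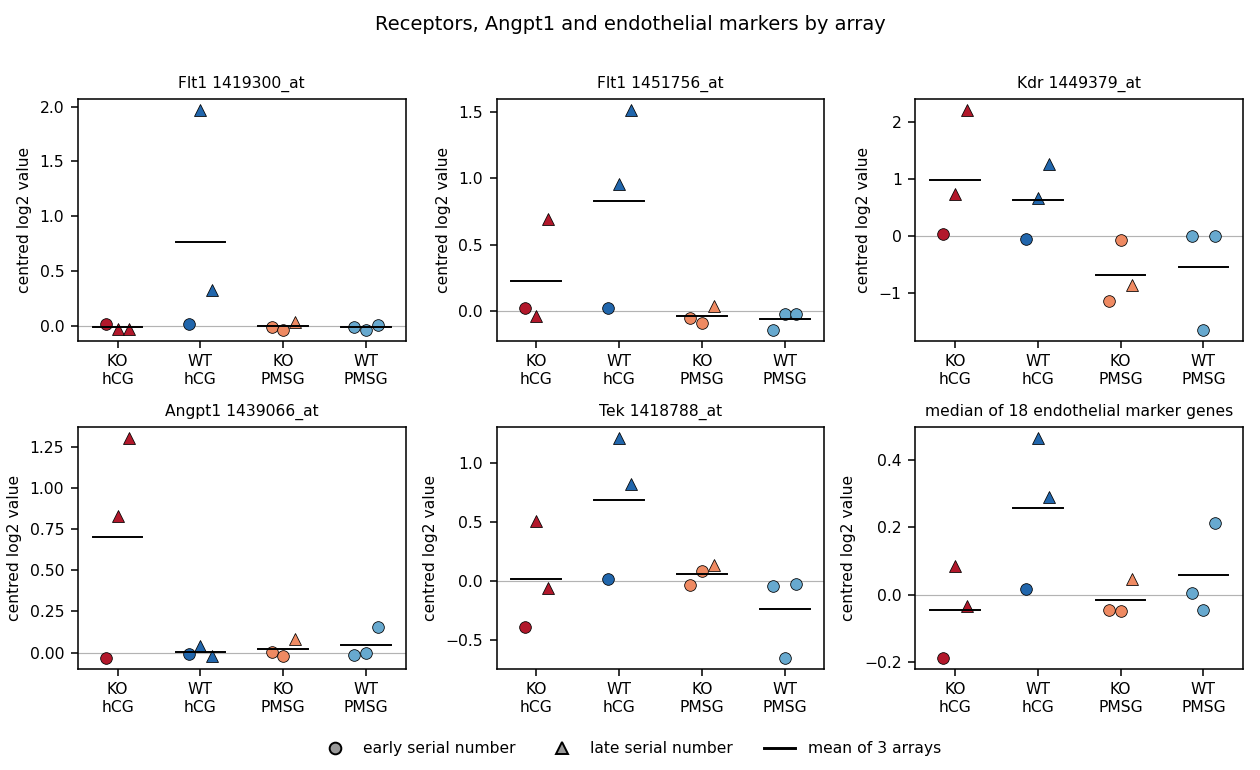
Centred log2 values on each array for Flt1, Kdr, Tek and Angpt1, and the median of 18 endothelial marker genes, with a black line at the mean of 3 arrays and the marker shape giving the serial class. The late wild-type hCG arrays stand highest for Tek and for the endothelial median, and the late Inha-/- hCG arrays stand apart for Angpt1.

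Epas1, which encodes HIF-2 alpha, a HIF subunit prominent in endothelial and several other cells, was lower in Inha-/- than in wild-type cells after hCG on both of its probe sets. On 1449888_at the values were -0.27, -0.49 and 0.071 in Inha-/- cells after hCG, and 2.80, 1.78 and 2.96 in wild-type cells after hCG. After PMSG alone it had 1.48, -0.24 and -0.38 in Inha-/- cells, and -0.21, -0.058 and 0.058 in wild-type cells. The 3 wild-type hCG arrays were above all 9 others, of which Inha-/- PMSG replicate 1 was the highest.

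On 1435436_at Epas1 had -1.47, -1.13 and -1.10 in Inha-/- cells after hCG, and 0.79, 0.55 and 1.04 in wild-type cells after hCG. After PMSG alone it had 0.23, -0.22 and -0.41 in Inha-/- cells, and 0.76, 0.22 and -0.27 in wild-type cells. Here the 3 Inha-/- hCG arrays were the lowest of all 12, and the wild-type hCG arrays overlapped the wild-type PMSG arrays.

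The genotype differences after hCG were -2.74 ± 0.48 on 1449888_at (6.70-fold lower; adjusted p = 0.00585, limma) and -2.03 ± 0.26 on 1435436_at (4.09-fold lower; adjusted p = 0.00143, limma; SE, n = 3 each). They were -3.07 and -2.26 in the early class (1 array each) and -2.58 and -1.91 in the late class (2 arrays each). Both passed the threshold in all 12 omissions of an array, at -3.11 to -2.52 and -2.15 to -1.91. Among the other alternatives, 1449888_at passed in 9 of 11 and 1435436_at in 8 of 10. After PMSG alone neither probe set passed the threshold between genotypes.

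In wild-type cells 1449888_at was higher after hCG by 2.59 ± 0.48 (SE, n = 3 each, 6.00-fold, adjusted p = 0.0084, limma), again in all 12 omissions (2.36 to 2.95). This call passed in 9 of the 10 other alternatives. The early hCG array against the early PMSG arrays gave 2.87. The other probe set differed by 0.56 in wild-type cells (adjusted p = 0.249). In Inha-/- cells the hCG differences were -0.51 on 1449888_at and -1.10 on 1435436_at (adjusted p = 0.113, limma), the groups not overlapping on the second. The 2 probe sets therefore placed the genotype difference on different sides, 1 by high wild-type and 1 by low Inha-/- values after hCG, and over the 12 arrays they correlated at r = 0.702.

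The difference between the hCG response of Inha-/- cells and that of wild-type cells was -3.10 ± 0.68 on 1449888_at (adjusted p = 0.0796, limma) and -1.66 ± 0.37 on 1435436_at (adjusted p = 0.0883, limma). Neither passed the threshold, so a genotype-dependent hCG response of Epas1 is not shown at this number of arrays. With the probe sets of low SD left out, a filter that favours probe sets that respond, 1449888_at passed (adjusted p = 0.0304, limma). With quantile normalization 1435436_at did (adjusted p = 0.0324, limma). Without wild-type hCG replicate 2 the first passed (adjusted p = 0.0368), and without wild-type PMSG replicate 1 the second (adjusted p = 0.0424). These settings are named because a probe set passed in them. With the replicate number as a block neither passed, and in no omission of an array did both.

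Across the 22 probe sets, 3 had an unadjusted p under 0.05 for the difference between hCG responses, as did 10.5% of all probe sets, and none passed the adjusted threshold in either direction, where 0.209% of all probe sets were higher and 0.721% lower. For the hCG response of Inha-/- cells, 4 of 22 had an unadjusted p under 0.05, as did 9.3% of all probe sets, and none passed the adjusted threshold in limma's test, where 1.1% of all probe sets were higher and 0.1% lower. The median of the 22 was 0.14 in Inha-/- cells and 0.074 in wild-type cells, beside -0.036 and 0.0047 for all probe sets. The smaller number of calls in Inha-/- than in wild-type cells is not a test of that difference.

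**Figure D4:**
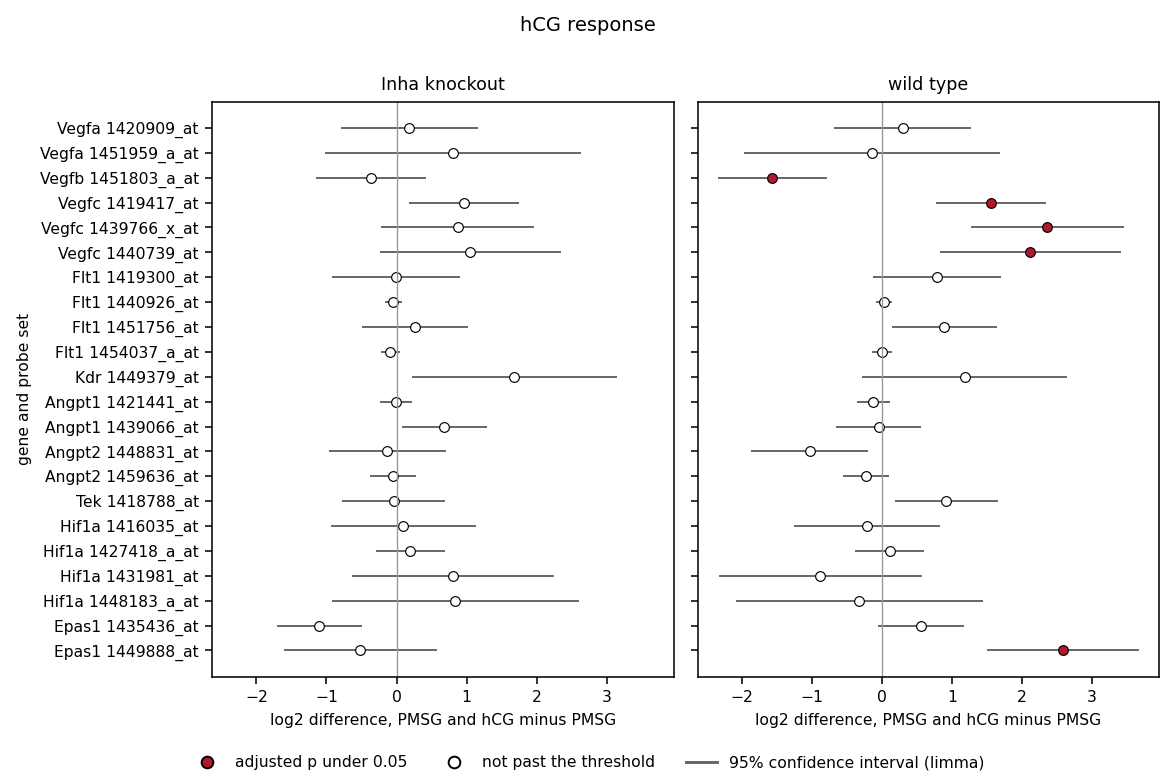
Log2 difference between hCG and PMSG alone for the 22 probe sets in Inha-/- cells and in wild-type cells, with 95% confidence intervals from limma. Filled points passed the threshold, 5 in wild-type cells (Vegfb lower, 3 probe sets of Vegfc and 1 of Epas1 higher) and none in Inha-/- cells.

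Hif1a, which encodes the HIF-1 alpha subunit, passed the threshold in no comparison on any of its 4 probe sets. Its probe set 1448183_a_at had -0.13, -0.19 and 0.0077 in Inha-/- cells after hCG, and 0.82, -0.043 and 0.088 in wild-type cells after hCG. After PMSG alone it had 0.45, -0.15 and -3.13 in Inha-/- cells, and -0.0077, 0.94 and 0.88 in wild-type cells. The genotype difference after PMSG was -1.55 with all arrays (adjusted p = 0.427) and -0.45 without Inha-/- PMSG replicate 3 (adjusted p = 0.828), the array that also read lowest on 1416035_at (-1.59) and 1427418_a_at (-0.80). These 3 probe sets correlated with one another at r = 0.81 to 0.851 over the 12 arrays, and with 1431981_at at -0.044 to 0.295. On 1431981_at the values ran from -0.22 to 1.92 in Inha-/- cells after hCG, -0.34 to 0.026 in wild-type cells after hCG, -0.35 to 0.85 in Inha-/- cells after PMSG and -0.38 to 1.77 in wild-type cells after PMSG.

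**Figure D5:**
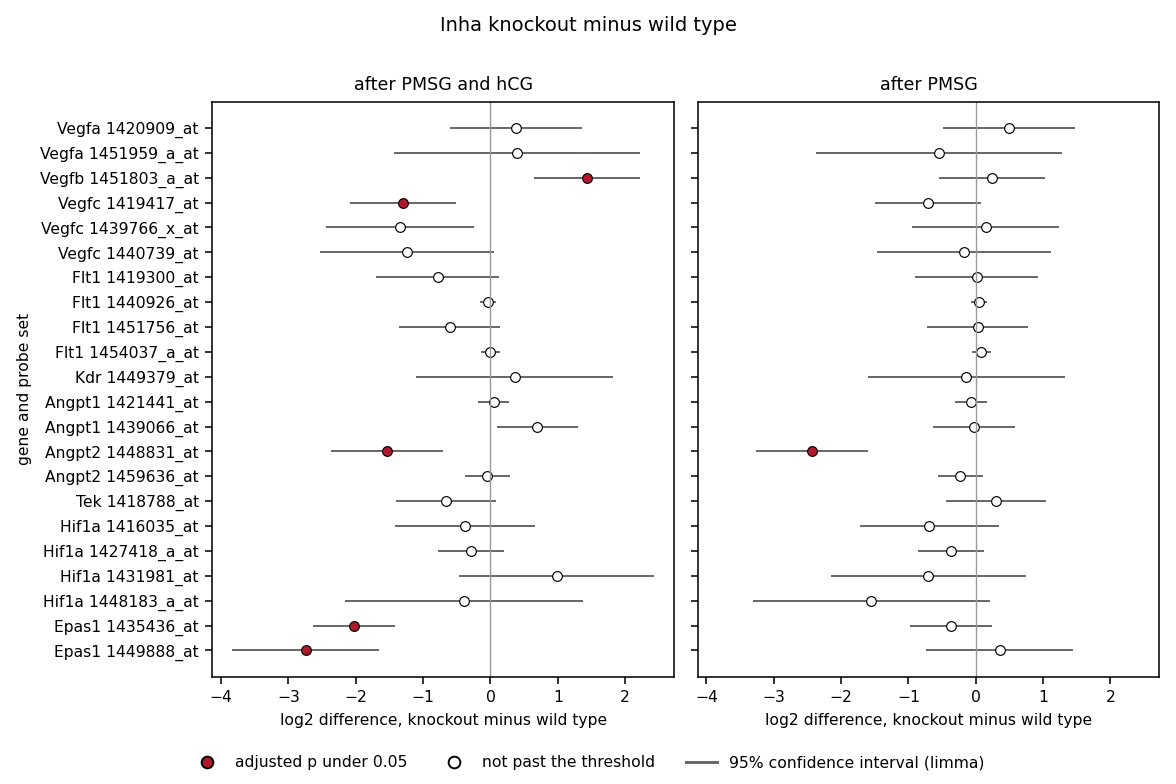
Log2 difference between Inha-/- and wild-type cells for the 22 probe sets after hCG and after PMSG alone, with 95% confidence intervals from limma. Filled points passed the threshold: after hCG both Epas1 probe sets, Angpt2 and Vegfc 1419417_at (lower) and Vegfb (higher), and after PMSG alone Angpt2 (lower).

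Partners and oxygen-sensing regulators of the HIF subunits were measured by 35 probe sets of 13 genes. Between Inha-/- and wild-type cells, 4 were lower and 0 higher after hCG, where 5.55% and 6.58% of all probe sets were, and 3 lower and 0 higher after PMSG alone, where 1.6% and 1.44% were. A probe set of Arnt2, a partner that binds DNA with the HIF subunits, was lower by -4.08 after hCG and -2.70 after PMSG (log2). Another Arnt2 probe set overlapped after hCG, with 0.017, -0.11 and -0.16 in Inha-/- cells and -0.017, -0.046 and 0.037 in wild-type cells. After PMSG alone it had -0.058, -0.11 and 0.019 in Inha-/- cells and 1.57, 0.31 and 0.81 in wild-type cells. In wild-type cells it was lower after hCG by -0.90 (adjusted p = 0.0438, limma). Between genotypes Cited2, which competes with HIF for the coactivators CBP and p300, was lower by -1.16 after hCG and -2.09 after PMSG. Cited4, a related protein, was lower by -3.82 after hCG. With hCG, 5 probe sets (4 genes) were higher and 0 lower in Inha-/- cells, beside 1.1% and 0.1% of all. In wild-type cells 4 (3 genes) were higher and 1 lower, beside 5.98% and 6.17%. Egln3, an oxygen-dependent prolyl hydroxylase that marks HIF subunits for destruction, was higher after hCG by 5.67 in Inha-/- cells and 6.01 in wild-type cells. The hCG response of Cited4 was 1.61 in Inha-/- cells and 4.84 in wild-type cells, a difference of -3.24 that passed the threshold (adjusted p = 0.00694, limma). Of the 35 probe sets, 0 were higher and 1 lower for this difference between responses (0.209% and 0.721% of all).

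Genes that hypoxia raises through HIF were measured by 42 probe sets of 20 genes. Egln3 is in this list as well as in the one above. After hCG 5 were higher (3 genes) and 0 lower in Inha-/- cells (1.1% and 0.1% of all probe sets). In wild-type cells 12 were higher (6 genes) and 3 lower (2 genes), beside 5.98% and 6.17% of all. Between genotypes after hCG, 5 were higher (4 genes) and 7 lower (4 genes) in Inha-/- cells (6.58% and 5.55% of all). The median of the 42 was 0.045 beside -0.00076 over all probe sets, so the list did not run one way. Pfkfb4, a regulator of glycolysis, was lower by -3.97 and Ndrg1, a stress-induced gene, by -1.71, and Slc2a3, a glucose transporter, was higher by 1.98. The hCG response differed between Inha-/- and wild-type cells for Pfkfb4 (-2.94, adjusted p = 0.0255, limma) and, the other way, for Slc2a3 (1.77, adjusted p = 0.0128, limma). Of the 42 probe sets, 1 was higher and 1 lower for this difference between responses (0.209% and 0.721% of all). Slc2a1, the glucose transporter widely cited as a HIF target, was higher after hCG by 1.18 in Inha-/- cells and 1.27 in wild-type cells. After PMSG alone 2 of the 42 were higher in Inha-/- than in wild-type cells and 0 lower (1.44% and 1.6% of all), P4ha2, a collagen prolyl hydroxylase, by 1.07 and Slc2a3 by 1.63. This Slc2a3 probe set is not the one of the values above, which differed by 0.21 after PMSG alone (adjusted p = 0.678).

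Together with Angptl4, the remaining VEGF and Tie pathway genes were measured by 23 probe sets of 10 genes. Angpt4, a further Tek ligand, was higher in Inha-/- than in wild-type cells by 2.07 after hCG and 1.96 after PMSG alone, on different probe sets. Angptl4, a secreted inhibitor of lipoprotein lipase that hypoxia raises, was lower by -2.28 in Inha-/- cells after hCG and higher by 2.34 with hCG in wild-type cells. Its hCG response differed by -2.37 between Inha-/- and wild-type cells (adjusted p = 0.00154, limma). Between genotypes, 1 of the 23 probe sets was higher and 1 lower after hCG (6.58% and 5.55% of all). After PMSG alone 1 was higher and 0 lower (1.44% and 1.6% of all). With hCG, 2 were higher and 0 lower in wild-type cells (5.98% and 6.17% of all), and none passed in Inha-/- cells (1.1% and 0.1% of all). For the difference between hCG responses 0 were higher and 1 lower (0.209% and 0.721% of all). The probe sets higher between genotypes were of Angpt4, and all the other called ones were of Angptl4. No other gene of the list passed the threshold.

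Among 44 probe sets of 22 other angiogenic and angiostatic genes, 6 (4 genes) were higher and 0 lower after hCG in Inha-/- cells (1.1% and 0.1% of all probe sets). In wild-type cells 12 (8 genes) were higher and 3 (3 genes) lower after hCG (5.98% and 6.17% of all). Cxcr4, the receptor of the chemokine Cxcl12, was higher after hCG by 3.59 in Inha-/- cells and 6.85 in wild-type cells, and Efnb2, an arterial ephrin, by 2.81 and 5.41. Both responses were smaller in Inha-/- cells, by -3.27 and -2.59 on the log2 scale (adjusted p = 0.000867 and 0.00859, limma). Of the 44 probe sets, 0 were higher and 5 lower for this difference between responses (0.209% and 0.721% of all). Between Inha-/- and wild-type cells, 5 were higher and 9 lower after hCG (6.58% and 5.55% of all), among the lower Edn2, an endothelin known to rise in ovulatory granulosa cells, by -1.80 and the metalloprotease Adamts1 by -2.00. After PMSG alone 3 were higher and 4 lower (1.44% and 1.6% of all), with Jag1, a Notch ligand, higher by 2.01, Pdgfa, a platelet-derived growth factor, higher by 2.12, and Ccn1, a matrix protein that binds integrins, lower by -3.67.

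For the 4 genes with a call, the genes most like each were taken by Pearson correlation over the 12 arrays, among 4537 probe sets with an SD at least that of the median member. Nearest to Angpt2 were Bmp2 (r = 0.963), Klk1 (0.96) and Satb1 (0.96). Nearest to Epas1 1449888_at were Stard5 (0.955), Dmd (0.949) and Ndrg1 (0.945), the last also among the HIF target genes above. Nearest to Vegfc 1440739_at were Abcb1a (0.971), Il33 (0.964) and Apela (0.954), and nearest to Vegfb were H1f10 (0.978), Tmem25 (0.963) and Pmf1 (0.95). These correlations rest on arrays that share genotype, treatment and serial class, and they describe likeness over 12 points only.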

How the data were processed

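Granulosa cell RNA had been hybridised to 12 one-colour Affymetrix arrays, 3 for each combination of genotype and treatment. The deposited values are on a log2 scale, computed by the authors with GCRMA per the submitters' processing notes, in a version not given in the sources used here. It is read as log2 since 1 probe set spans 13.3, more than the 11.1 of a natural log of scanner values. Probe-set medians over the 12 arrays were 0 to within 5e-07, so each had been centred, a step no source records. Of 45101 probe sets, 64 controls and those naming several genes or none were left out, which left 34945, without a filter on low values. Columns of other samples numbered 0. Array medians were -0.020 to 0.093, the highest on Inha-/- PMSG replicate 3, and 3 arrays a group limit the precision.

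One mean per group was fitted in limma 3.58.1 (R 4.3.3) with empirical Bayes moderation (8 residual degrees of freedom), and 5 contrasts were tested: genotype after PMSG, genotype after hCG, hCG in each genotype and the difference between the hCG responses. Groups came from the labels. The members and gene lists were chosen with earlier results of these data known. Every member probe set is accounted for, values on every array are given for called ones and for others that show the spread, at most 4 genes per list and comparison with the smallest adjusted p are named, and the 3 genes most like each called member. The fit was tested on simulated data.

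Same-numbered replicates of different groups were checked for pairing. Over 18 pairs, the correlation of their deviations from the group means was -0.141 to 0.265, with 6 above 0.1, and the arrays were fitted unpaired. The wild-type and Inha-/- PMSG arrays of replicates 1 and 2, which share the number in their names, gave 0.171 and 0.265. A pairing of these arrays cannot be dismissed. Alternatives were other normalizations, filters, gene-level values, weights, blocks, array subsets and omission of each array.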

Additional observations from a re-analysis of the deposited data

How the results depend on the processing

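Of 243 repeats of the 11 called differences of the 22 probe sets, 179 passed the threshold, 64 had the same direction without passing and 0 turned round. The counts of called member probe sets and of all called probe sets follow, in the order of genotype after PMSG (1 and 1062 in the analysis reported), genotype after hCG (5 and 4238), hCG in wild-type cells (5 and 4245), hCG in Inha-/- cells (0 and 419) and the difference between hCG responses (0 and 325). Array weights ran from 0.125 on Inha-/- PMSG replicate 3 to 7.64 on Inha-/- PMSG replicate 1. They gave 6 and 9207, 9 and 9309, 9 and 10699, 11 and 8962, and 8 and 7385. Quantile normalization gave 3 members for genotype after hCG (both Epas1 probe sets and Angpt2), 3 for hCG in wild-type cells (Epas1 1449888_at, Vegfc 1439766_x_at and Angpt2, the last not called in the analysis reported) and 1 in each of the last 2 comparisons. Values of 1 probe set per gene gave 3 of 2672 called genes for genotype after hCG, 3 of 2764 for hCG in wild-type cells and 1 member for the difference between responses, as did leaving out probe sets of low SD. Fitting only the 2 groups compared gave 0 and 499 for genotype after PMSG, 3 members for hCG in wild-type cells and 175 in all for hCG in Inha-/- cells. The serial number as a covariate gave 3 members for hCG in wild-type cells.

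The number in the array names as a random block (correlation 0.573) gave 2596 in all for genotype after PMSG, 2 and 2297 for genotype after hCG and 1962 in all for hCG in wild-type cells. The 7 early arrays alone, with 1 hCG array per genotype assumed to vary like the PMSG groups, gave 0 and 158, 0 and 1160, 0 and 1937 in the first 3 comparisons and 254 in all in the fourth. The 5 late arrays alone, an alternative chosen after seeing the data, gave 0 and 26 for genotype after hCG and 5 and 8721 for hCG in Inha-/- cells, the last against 1 PMSG array (replicate 3, lowest for Vegfa 1451959_a_at and 3 Hif1a probe sets) assumed to vary like the other groups. Some of these fits have fewer arrays or genes, and otherwise the cause was not tested. Omitting each array in turn gave 1 to 1 members and 527 to 1389 in all, 2 to 5 and 2488 to 4591, 1 to 7 and 2274 to 4624, 0 to 1 and 290 to 478, and 0 to 1 and 142 to 789. The count of 1 for hCG in wild-type cells came without wild-type hCG replicate 3.

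With the replicate number as a block, although only 6 of the 18 same-numbered pairs correlated above 0.1, the counts were 1 and 1016, 4 and 4150, 5 and 4178, 0 and 392, and 0 and 248. The genotype call after hCG that was lost there was Vegfc 1419417_at (adjusted p = 0.0649). Centred values without an intensity scale and 3 arrays a group limit what can be read from members not past the threshold.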
